A study of Mus musculus with 49 samples.

Results

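Immediate early response genes were examined in single E13.5-born neurons of the mouse somatosensory cortex. Of the 10 genes looked for (Fos, Fosb, Jun, Junb, Egr1, Arc, Npas4, Nr4a1, Ier2 and Dusp1), 8 were among the 9020 genes listed, and Arc and Nr4a1 were not analysed here. The neurons came from WT mice of the CD1 strain. They had been labelled at E13.5 with FlashTag (FT), a fluorescent dye that marks cells dividing at the ventricle, and were collected at P7 from the primary somatosensory area by aspiration into a patch pipette (Patchseq), so that all had been in acute slices kept in artificial cerebrospinal fluid before lysis. The labels give 49 cells of 1 condition, in 5 library pools of 12, 9, 9, 9 and 10 cells, and name no animal. The paper's methods speak of several independent experiments, but the labels tie no cell to one, so the cells were treated as 1 sample and no test was made between them. The labels do not give the time between slicing and aspiration.

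Immediate early genes are transcribed within minutes of a stimulus and need no new protein for it, because the factors that switch them on are already present and are activated by phosphorylation. In cortical neurons synaptic activity, calcium entry and growth factors are well known stimuli, and cutting or dissociating the tissue is another. Fos and Fosb encode partners that pair with Jun or Junb to form AP-1, a transcription factor dimer. Egr1 encodes a zinc finger transcription factor, Npas4 a neuronal transcription factor that responds mainly to calcium entry, Ier2 a small nuclear protein, and Dusp1 a phosphatase that switches off MAP kinases.

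Many immediate early promoters carry sites that are bound by factors already in the nucleus, so the bases before the start sites were searched. RefSeq (GRCm38.p6) gave a window of 250 bases before the start for 6 of the 8 genes, those other than Egr1 and Ier2. The motif TGACG, which is one side of the cAMP response element (CRE) TGACGTCA, was found on either strand in 5 of these 6 windows (Fos, Fosb, Junb, Npas4 and Dusp1), compared with 17.8% of all 32851 windows of the same length. The whole CRE, which contains that motif, was found in the Dusp1 window alone among the 6 and in 1.55% of all windows. The TATA box TATAAA was found in the Fos window and in 12.4% of all windows. Neither the AP-1 site TGANTCA (6.75% of all windows), the CArG box (1.47%) nor the Egr site GCGTGGGCG (0.536%) was found in the 6. Bases farther than 250 from the start, and the promoters of Egr1 and Ier2, were not searched. The genes are therefore not shown to lack these sites. The windows of Fos, which had the highest correlation with the other members, of its AP-1 partners Jun and Junb, and of Dusp1 with its whole CRE are shown 5′ to 3′, with TGACG or its complement and TATAAA in capitals:
Fos, chr12:85473640-85473889, plus strand: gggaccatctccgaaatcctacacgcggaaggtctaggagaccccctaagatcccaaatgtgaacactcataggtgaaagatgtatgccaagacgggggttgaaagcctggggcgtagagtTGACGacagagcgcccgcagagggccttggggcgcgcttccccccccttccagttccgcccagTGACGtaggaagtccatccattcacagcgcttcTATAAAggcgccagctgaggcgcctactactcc
Jun, chr4:95052223-95052472, minus strand: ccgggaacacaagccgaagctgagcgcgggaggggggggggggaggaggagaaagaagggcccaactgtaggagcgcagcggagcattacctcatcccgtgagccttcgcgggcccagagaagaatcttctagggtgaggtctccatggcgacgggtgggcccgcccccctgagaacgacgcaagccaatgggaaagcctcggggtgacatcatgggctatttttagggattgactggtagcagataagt
Junb, chr8:84978749-84978998, minus strand: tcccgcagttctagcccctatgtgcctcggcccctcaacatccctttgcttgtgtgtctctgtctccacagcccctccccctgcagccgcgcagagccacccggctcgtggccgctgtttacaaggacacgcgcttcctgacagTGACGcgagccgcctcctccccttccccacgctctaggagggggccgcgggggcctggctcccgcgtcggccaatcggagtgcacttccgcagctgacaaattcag
Dusp1, chr17:26508520-26508722, minus strand: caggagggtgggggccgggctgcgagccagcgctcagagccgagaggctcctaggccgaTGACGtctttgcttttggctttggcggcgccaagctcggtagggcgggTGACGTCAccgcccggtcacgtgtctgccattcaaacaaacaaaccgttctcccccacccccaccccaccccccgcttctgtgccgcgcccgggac
Counted back from the RefSeq start, the TGACG motifs of Fos began at -129 and -66 and its TATA box at -33. The motif of Junb began at -106, and the CRE of Dusp1 at -143 with a further TGACG at -191. The Jun window held neither motif. For Dusp1 the 47 bases nearest the start are left out, because GENCODE M21 places them in an exon, and the Npas4 window lay wholly in such an exon. These matches describe letters in the windows and were not tested for binding.

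The RPM values had a total behind them of between 209850 and 35342325 recovered reads for a cell (median 1240101), so that 1 read was worth 4.77 RPM in the shallowest cell and 0.0283 RPM in the deepest. Pool 1 was the deepest, with a median of 9870201 reads, and pool 5 the shallowest, with 814366. The pan-neuronal markers Snap25, Syt1, Stmn2, Map2 and Tubb3 were at 10 RPM or more in 49 of 49 cells and Rbfox3 in 48, so that every cell labelled a neuron held neuronal RNA. Red blood cell genes nevertheless summed to more RPM than these markers in several cells, such as IL01 of pool 3 (688002 and 1293 RPM). They are described below and were kept out of the next comparison. It took astrocyte, oligodendrocyte lineage, microglia, and endothelial and mural markers. In 3 cells the markers of 1 of these types summed to more RPM than the pan-neuronal ones. These were IL05 of pool 5 (microglia 7205, pan-neuronal 1460 RPM), IL08 of pool 3 (microglia 4358, pan-neuronal 3280 RPM) and IL02 of pool 2 (oligodendrocyte lineage 3903, pan-neuronal 3248 RPM). Without these 3 cells, the number of members per cell had the same median of 5 and the median correlation between members was 0.27 in place of 0.23. The reads carry no molecular identifiers, so all intervals cover counting error only. Cells are named below by the IL number and the pool that the labels give them, which are library names and not interleukins.

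At a limit of 10 RPM, Fos and Egr1 were the members found in most cells and Npas4 the one found in fewest. Egr1 was found in 40 of 49 cells (81.6%, exact Clopper-Pearson 95% interval 68.0% to 91.2%) and Fos in 39 (79.6%, 65.7% to 89.8%). Junb was found in 34 cells (69.4%, 54.6% to 81.7%), Ier2 in 32 (65.3%, 50.4% to 78.3%) and Jun in 29 (59.2%, 44.2% to 73.0%). Fosb and Dusp1 were each found in 27 cells (55.1%, 40.2% to 69.3%). Npas4 was found in 8 cells (16.3%, 7.32% to 29.7%). The intervals treat the cells as independent draws, and no test between genes was made. Genes may differ in how well the library kit captures them, so this order and those below are of detection and not of amounts of RNA. By pool, Npas4 was found in 8.33% to 22.2% of cells and each of the other 7 in at least 33.3%, while the order of those 7 differed from pool to pool. The median gene of the whole table was at 10 RPM or more in 20 cells, so that 7 of the 8 members were more widely read than the median gene, in a table whose genes had each reached 100 RPM in at least 2 cells.

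Read from 1 read upwards, the order was different. Ier2 then came first with 49 of 49 cells, followed by Egr1 with 48, Fos with 47, Junb and Dusp1 with 45 each, Fosb with 41, Jun with 39 and Npas4 with 22. At 100 RPM or more, Egr1 was found in 26 cells, Fos in 23, Junb and Ier2 in 17 each, Dusp1 in 14, Jun in 10, Fosb in 7 and Npas4 in 2. Thus Npas4 came last at all 3 limits, and Egr1 and Fos came first at 10 RPM and at 100 RPM. Single reads are a weak sign in this table, because C1qb, a complement gene of microglia, had a read in 38 cells and was at 10 RPM or more in 11. C1qb and Aif1 were the most widely read of the 8 microglial markers in the table, and Tmem119, with a read in 14 cells, the least. At 10 RPM or more these markers were found in between 5 cells (Tmem119) and 21 (Aif1). Npas4, with 22 cells at 1 read and 8 at 10 RPM, lay inside both ranges. Reads can also be exchanged between libraries that are sequenced together. A further count kept a cell only where the gene was at 10 RPM or more and 1 more condition was met. The reads of the gene in the cell had to be over 5% of those of the highest cell of its pool. With both conditions the order changed again. Junb was then found in 61.2% of cells, Egr1 in 59.2%, Fosb and Ier2 in 46.9% each, Dusp1 in 44.9%, Fos in 42.9%, Jun in 40.8% and Npas4 in 16.3%. The lead of Fos thus did not hold at this limit, whereas Npas4 stayed last. The condition compared reads and not RPM, so a shallow cell could fail it by depth. In IL09 of pool 1, for example, Fos at 81.7 RPM came from 101 reads, and IL01 of that pool had 15104. This order is therefore tied to depth as well as to the genes.

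Fos (chr12:85473890-85477273, plus strand, GRCm38, protein coding, as are all 8) encodes the AP-1 subunit used most widely as a mark of recent neuronal activity. Its level was 0 in the lowest cells, 79.8 RPM at the median and 1543 RPM in the highest cell, which was IL05 of pool 5 (1189 reads, exact Poisson interval 1456 to 1633 RPM). The second highest was IL03 of pool 3, with 1332 RPM. Fos had 0 reads in IL01 and IL09 of pool 4, where 3 reads would be worth 8.17 and 9.26 RPM. The medians of pools 1 to 5 were 142, 45.7, 50.6, 11.8 and 99.4 RPM. The pools overlapped throughout, since the lowest cell of each was at 11.7 RPM or less and the highest at 732 RPM or more. All 10 cells of pool 5 were at 10 RPM or more, compared with 5 of 9 in pool 4.

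Fosb (chr7:19302696-19310051, minus strand) encodes the second Fos partner. It ranged from 0 to 594 RPM, with a median of 14.3 RPM. The highest cell was IL10 of pool 5 and the second IL09 of the same pool, with 294 RPM. Pool medians ran from 0 RPM in pool 4, where 5 of 9 cells had 0 reads, to 29.3 RPM in pool 2. Differences between pools made up 21.6% of its variance in log2(RPM + 1), the highest such share among the members. Cells placed in pools at random would give 8.33% on average, and the median gene of the table had 9.91%.

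Jun (chr4:95049034-95052222, minus strand) encodes the partner with which Fos forms the best known AP-1 dimer. Its lowest level was 0, its median 11.8 RPM and its highest 450 RPM, in IL06 of pool 2. It was at 10 RPM or more in 10 of 12 cells of pool 1 and in 8 of 9 cells of pool 3. In pools 2 and 4 the same was true of 3 of 9 cells each, and 6 of 9 cells of pool 4 had 0 reads. The share of cells with Jun thus ran from 33.3% to 88.9% between pools, and its pool share of variance was 16.9%. The gene overlaps Junos on the opposite strand, and the strand setting of the counting is not given in the sources used here, so reads of the pair cannot be told apart.

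Junb (chr8:84974484-84978718, minus strand) encodes a Jun protein that often counteracts Jun at shared targets. It ranged from 0 to 2538 RPM, with a median of 68.1 RPM. The highest value came from IL12 of pool 1, a shallow library, in which Junb took 572 of 225363 reads (exact Poisson interval 2334 to 2755 RPM). The same cell had 44.4 RPM of Fos and of Egr1 and no other member over 100 RPM. The next highest was IL05 of pool 5, with 958 RPM. Pool medians lay between 43.3 and 99.8 RPM, and the pool share of variance, 4.01%, was the lowest among the members. Junb overlaps Prdx2 on the opposite strand, with the same limit as for Jun and Junos.

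Egr1 (chr18:34859823-34864984, plus strand) had a median of 142 RPM and a highest level of 939 RPM, in IL10 of pool 5. In IL01 of pool 4 it had 0 reads, and it was read in every other cell. All 10 cells of pool 5 were between 47.7 and 939 RPM. The lowest cells of pools 1 to 3 were between 3.46 and 5.78 RPM, so that pools 1 to 4 each reached under 10 RPM and pool 5 did not. Of all RPM of Egr1, 36.7% lay in its 5 highest cells, the lowest such share among the members (median of all genes 58.4%).

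Npas4 (chr19:4984355-4990316, minus strand) was the reverse, with 85.7% of its RPM in its 5 highest cells. Its median was 0 RPM, and 27 of 49 cells had 0 reads. The highest cell, IL10 of pool 5, had 495 RPM from 471 reads (451 to 542 RPM), and it held 97.1% of all Npas4 reads of its pool. The second highest was IL04 of pool 3, with 153 RPM. The other 6 cells at 10 RPM or more were between 13.54 and 63.0 RPM and came from pools 1 to 4. In 25 of the 27 cells with 0 reads, 3 reads were worth less than 10 RPM. This bounds sequencing depth only, because RNA lost before sequencing also leaves 0 reads, so these cells are not shown to lack Npas4.

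Ier2 (chr8:84661331-84662852, minus strand) was the member read in every cell, from 0.947 RPM in IL06 of pool 1 (8 reads) over a median of 28.8 RPM to 1127 RPM in IL02 of pool 5. In its pool, IL02 of pool 2 led Ier2 with 305 RPM and Fosb with 223 RPM, and it is the cell with the high oligodendrocyte sum. IL02 of pool 5 was set apart, since the second highest cell had 420 RPM, and it held 75.1% of the Ier2 reads of its pool. All 10 cells of pool 5 were at 10 RPM or more, whereas in pools 2 and 4 this held for 4 of 9 cells each. The pool share of variance was nonetheless 7.19%, below the 8.33% that random placement would give on average.

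Dusp1 (chr17:26505590-26562128, minus strand) had a median of 34.1 RPM and a highest level of 475 RPM, in IL09 of pool 4, followed by 470 RPM in IL05 of pool 5. Its pool medians were far apart, at 3.97 RPM in pool 3 and 5.65 RPM in pool 1 but 89.1 RPM in pool 2. Even so the ranges overlapped, with highest levels of 120 RPM in pool 3 and 259 RPM in pool 1. The annotated span of Dusp1 overlaps 4 other genes, 2 of them on the same strand, so that reads there may be counted differently under another setting.

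**Figure D1:**
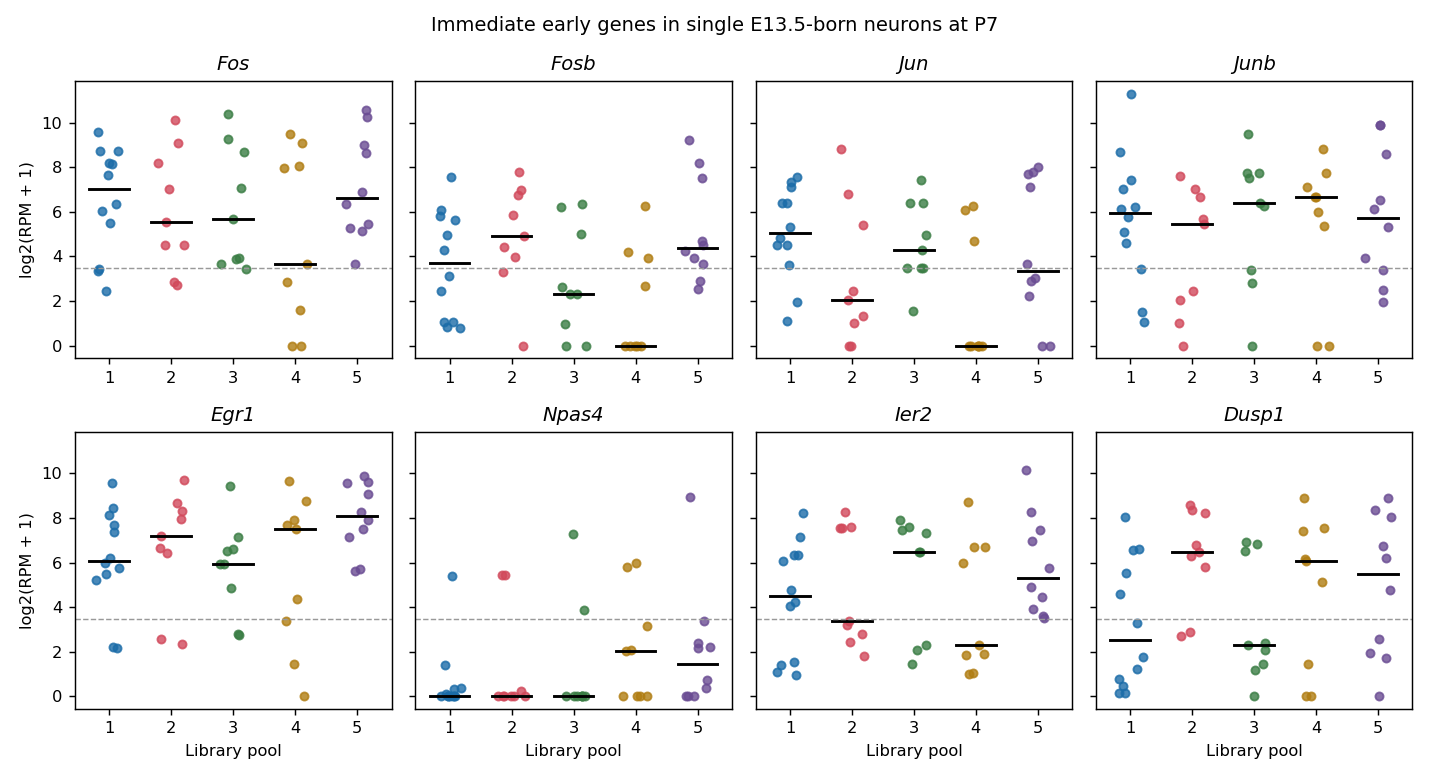
Level of each member in each cell, as log2(RPM + 1) on the vertical axis, by library pool on the horizontal axis; each point is a cell, the black bar is the median of the pool and the dashed line marks 10 RPM. The pools overlap for every gene, Npas4 lies at 0 in 27 of 49 cells, and all 10 cells of pool 5 lie above the line for Fos, Egr1 and Ier2.

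The plot of levels by pool shows the same wide spread inside each pool as over all cells. The SD of log2(RPM + 1) over the 49 cells lay between 2.31 for Npas4 and 2.999 for Dusp1, and the median over all genes was 2.63. The spread of the members was thus close to that of the table as a whole.

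Most cells held several members at once and few held all or 1. At 10 RPM or more a cell held a median of 5 of the 8 members, with a range of 1 to 8. There were 3 cells with 1 member, 4 with 2, 10 with 3, 3 with 4, 7 with 5, 9 with 6, 10 with 7 and 3 with 8. The SD of this number was 2.03, where independent genes at the same shares would give 1.27, a value that takes no account of depth. Medians by pool were 6, 3, 5, 4 and 5.5 members in pools 1 to 5. At 100 RPM or more the median was 2 members, 8 cells held 0 and 1 cell, IL10 of pool 5, held all 8.

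Of the 256 possible combinations of members, 33 were held by a cell and 25 of these by 1 cell only. The most frequent was all members but Npas4, in 8 cells. All 8 members at 10 RPM or more were found in IL10 of pool 5, IL06 of pool 2 and IL03 of pool 3. In these 3 cells Fos was at 1228, 1119 and 1332 RPM and Egr1 at 939, 846 and 698 RPM, in the same order. Each held the highest Egr1 level of its pool. Junb differed more among the 3, at 946.5, 43.3 and 212 RPM.

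The cells with 1 member differed in which member it was. IL05 of pool 1 held Jun at 186 RPM and every other member under 10 RPM. IL10 of pool 1 held Ier2 at 298 RPM and every other member under 10 RPM. In both cells Fos fell just short of the limit. It was at 9.05 RPM in IL05 (34 reads, exact Poisson interval 6.27 to 12.6 RPM). In IL10 it was at 9.83 RPM (111 reads, 8.08 to 11.8 RPM). Both intervals include 10 RPM, so Fos is not shown to be absent from these cells. IL01 of pool 4 held Junb at 452 RPM (166 reads), with 0 reads of Fos, Jun, Egr1, Npas4 and Dusp1. The first of these cells had 3757627 reads and the second 11295087, so that a level of 10 RPM would have given many reads in both. The third had 366983 reads and 3435 genes detected. A cell with a pair of members, IL09 of pool 4, held Ier2 at 420 RPM and Dusp1 at 475 RPM with 0 reads of Fos, Fosb, Jun and Junb, and it had the lowest number of genes detected, 3302.

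**Figure D2:**
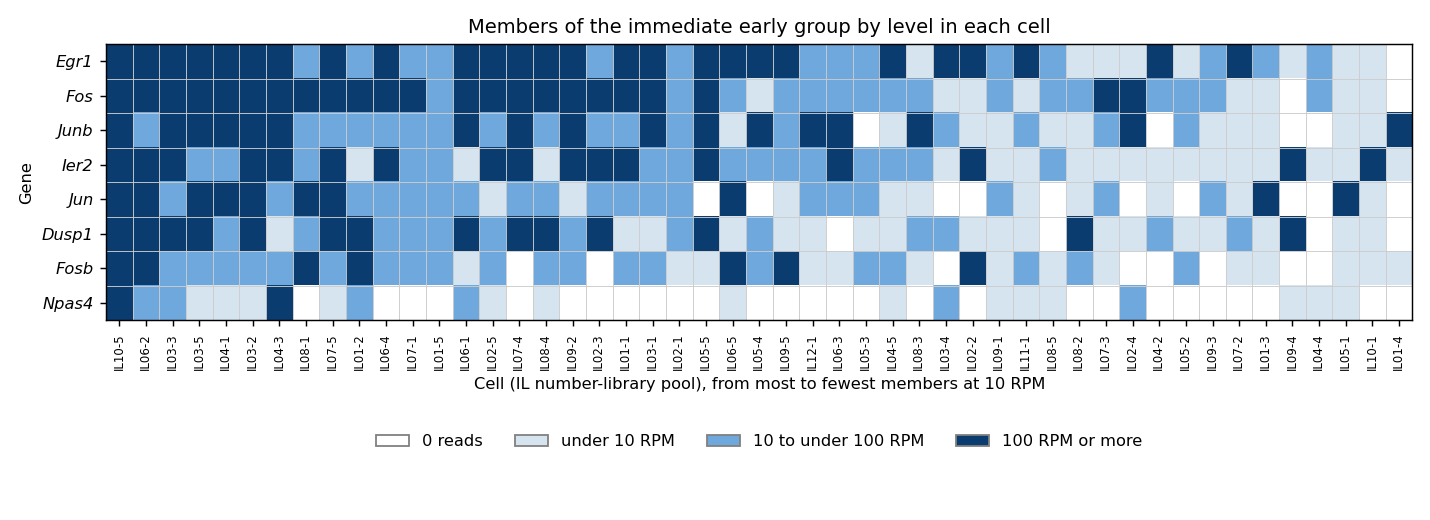
Members by level in each of the 49 cells; rows are the genes, columns the cells from the most to the fewest members at 10 RPM, and the 4 shades stand for 0 reads, under 10 RPM, 10 to under 100 RPM and 100 RPM or more. IL10 of pool 5 at the left is at 100 RPM or more for all 8, while the 3 cells with 1 member each hold a different gene.

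AP-1 genes of both kinds were found in most cells, and each kind was found in most cells on its own. At 10 RPM or more, 42 cells held Fos or Fosb and 40 cells held Jun or Junb. Both a Fos partner and a Jun partner were found in 36 of 49 cells, a Fos partner without a Jun partner in 6, the reverse in 4, and neither in 3. Within the families, Fos and Fosb were found together in 24 cells, where independent genes would give 21.5. Jun and Junb were found together in 23, where 20.1 would be given, and 16 cells held all 4 genes. Fos and Egr1 were found together in 34 cells, where 31.8 would be given, and 4 cells held neither. An excess over independence was seen in 73.1% of all pairs of genes. For the 36 cells with both kinds no such expected number was worked out.

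The 8 cells with Npas4 differed in the other members they held, from 2 of 7 (Fos and Junb, in IL02 of pool 4) to all 7 in 3 cells. Junb was at 10 RPM or more in 8 of these 8 cells, Fos and Egr1 in 7 each, Jun and Dusp1 in 6 each and Fosb in 5. Ier2 was found in 4 of the 8, compared with 28 of the 41 cells without Npas4. For Fosb the number was 22 of the 41, and for Junb 26. With 8 cells the shares are loose, and no difference between them was tested.

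Levels of the members went together across cells, most of all for Fos. Over the 49 cells, the Pearson correlation of log2(RPM + 1) between 2 members had a median of 0.23 over the 28 pairs and ran from -0.09 (Npas4 and Ier2) to 0.50 (Fos and Junb). It reached 0.3 in 9 of 28 pairs (32.1%), compared with 8.46% of the pairs among all 9020 genes, whose median was 0.08. Fos took part in 5 of these 9 pairs, with Junb (0.50), Jun (0.47), Egr1 (0.41), Ier2 (0.38) and Dusp1 (0.38). Egr1 took part in 5, adding Fosb (0.47), Dusp1 (0.36), Jun (0.35) and Ier2 (0.31). The pair of Jun and Junb was at 0.14, and Jun and Ier2 at 0.01.

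The points of these correlations are cells that share a pool and a wide range of depth, so the values are descriptions and carry no p. Centred within pools, the median over the pairs was 0.25 and 10 of 28 were at 0.3 or more. Given log10 reads per cell, the median was 0.20 and 8 of 28 reached that level. Among genes at 10 RPM or more in at least 10 cells, which leaves out Npas4, 9 of 21 pairs of members (42.9%) reached it, compared with 10.5% of all pairs. Within single pools the median ran from 0.17 in pool 4 to 0.36 in pool 2.

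Counts of cells gave a weaker contrast. In 27 of the 28 pairs, more cells held both members at 10 RPM than independent genes would give, by up to 4.37 cells (Fosb and Ier2, 22 cells). The same was true of 73.1% of all pairs of genes, and of 78.0% of pairs of genes at 10 RPM or more in at least 10 cells, so independence is not the usual state of genes in this table. The median excess was 2.27 cells over the pairs of members and 0.88 cells over all pairs of genes, which are found in fewer cells. The exception was Npas4 and Ier2, with 4 cells where 5.22 would be given. Most of these excesses were small. Fos and Egr1, the most frequent pair, were held by 34 cells where 31.8 would be given.

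**Figure D3:**
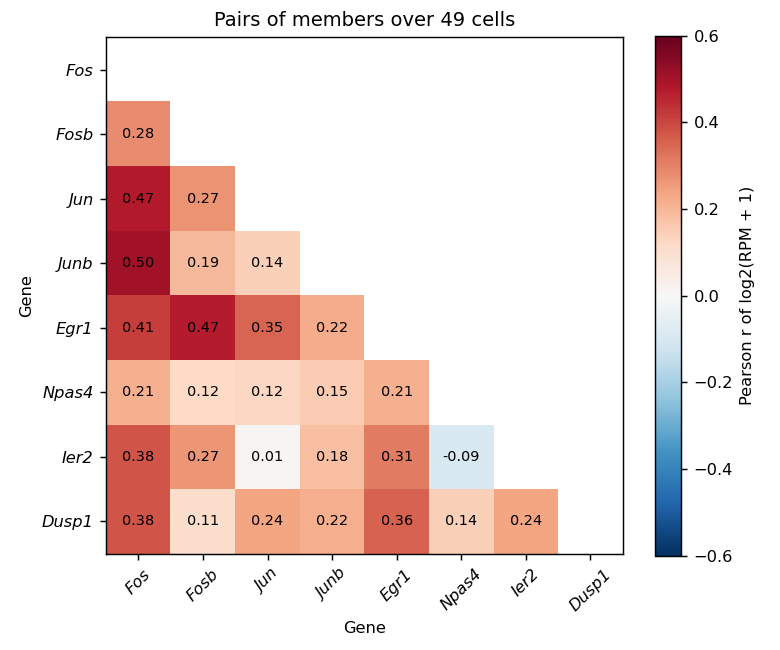
Pearson correlation of log2(RPM + 1) over the 49 cells for each of the 28 pairs of members; both axes list the genes, and the shade and the printed value give r. Values are highest for Fos with Junb (0.50) and Jun (0.47) and for Fosb with Egr1 (0.47), and 1 pair, Npas4 with Ier2, is below 0.

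Set against the mean of the other 7 members, Fos had the highest correlation (0.68), followed by Egr1 (0.58). Fosb and Dusp1 (0.40 each), Junb (0.39) and Jun (0.38) lay together, and Ier2 (0.31) and Npas4 (0.20) were lowest. Fos was thus the gene that stood best for the group in these cells and Npas4 the one that stood for it least.

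Cells with more reads held more members. The number of members at 10 RPM or more had a Pearson correlation of 0.38 with log10 reads per cell (Spearman 0.42) and of 0.50 with the number of genes detected. The mean log2(RPM + 1) of the 8 members had one of 0.36 with log10 reads (Spearman 0.44), which was 0.48 when centred within pools. In the single pools it was 0.22, 0.57, 0.72, 0.93 and 0.40 in pools 1 to 5, so that it was positive in all 5. Its size rested on the pools included, with 0.56 over the cells outside pool 1 and 0.23 over those outside pool 4. Among the members Fos had the highest correlation with log10 reads (0.46), followed by Jun (0.32) and Fosb (0.25). Ier2 (0.18), Egr1, Dusp1 and Junb (0.17 each) and Npas4 (-0.11, the lowest) lay below the median over all genes, which was 0.21. That median is of single genes, so it is no measure to set beside the mean of the 8 members. When each cell was thinned to 358412 reads, which left out 5 shallower cells, a read of Fos was left in 93.2% of 44 cells, of Egr1 in 93.2%, of Junb and Ier2 in 90.9% each and of Npas4 in 29.5%.

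**Figure D4:**
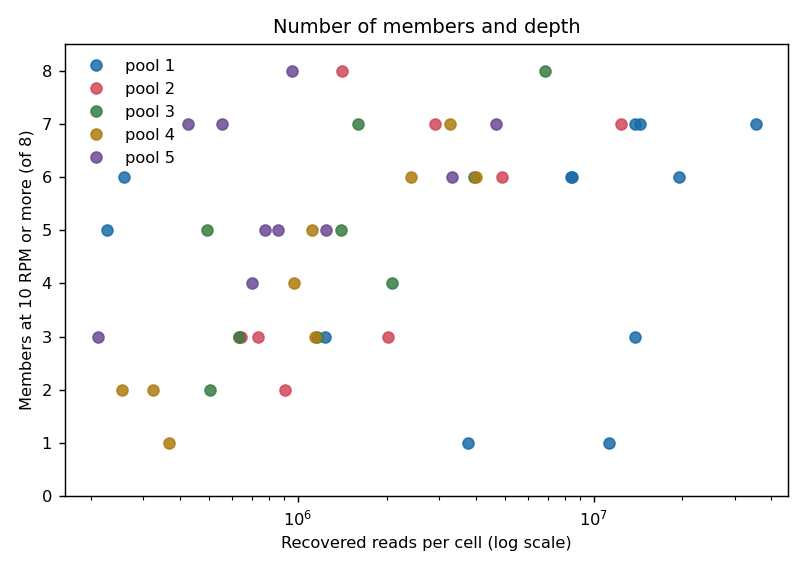
Number of members at 10 RPM or more (vertical axis) against recovered reads (horizontal axis, log scale) for each of the 49 cells, coloured by library pool. Cells with all 8 members had between 951907 and 6867017 reads, and 2 of the 3 cells with 1 member were deeper than the median of 1240101.

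The members were next set beside other lists of genes, by the mean log2(RPM + 1) of each list over the 49 cells. Other immediate early genes, of which 35 of 50 listed were in the table, had the highest correlation with the members, 0.58 (Spearman 0.61, within pools 0.62, given log10 reads 0.49). For comparison, the mean of all genes outside the 8 members had 0.50. Of the 35 genes, 10 (28.6%) reached 0.3 with the mean of the members, compared with 15.2% of all 9012 other genes. The highest were Klf10 (0.55) and Klf6 (0.39), which encode zinc finger factors, Gadd45g (0.48), a stress-induced growth regulator, Nr4a2 (0.47), an orphan nuclear receptor of the family of Nr4a1, and Rgs2 (0.45), which limits G protein signalling. The lowest were Jund (-0.08), an AP-1 member that most cells make without stimulus, and Cebpb (-0.05). Nr4a2 was at 10 RPM or more in 11 cells and Klf10 in 22, and the highest cells were IL10 of pool 5 for Nr4a2 and Gadd45g and IL05 of pool 5 for Klf10.

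Kinases and transcription factors that act upstream of immediate early genes had a correlation of 0.44 with the members. Of the 32 genes listed there, 6 (18.8%) reached 0.3, a share near the 15.2% of all genes. Mapk10 (0.45) and Mapk14 (0.37), which encode stress-activated MAP kinases, were highest, followed by Creb1 (0.35), which encodes the factor that binds the CRE, and by Map2k1 and Rps6ka1 (0.35 each). Srf, whose product binds the CArG box, was at -0.04 and was read in 23 cells. Ppp3r1 and Rps6ka3 (-0.08 each) were lowest.

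Genes listed as late activity responses, which mostly follow the early wave, had a correlation of 0.33 as a list, and 0 of 14 genes reached 0.3. Gpr22 was highest (0.27) and Nptx2 lowest (-0.10), with Bdnf, the neurotrophin, at 0.19. Heat shock and stress genes had 0.24, with 1 of 10 genes at 0.3 or more (Atf4, 0.31). Given log10 reads, the list of stress genes had 0.09.

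**Figure D5:**
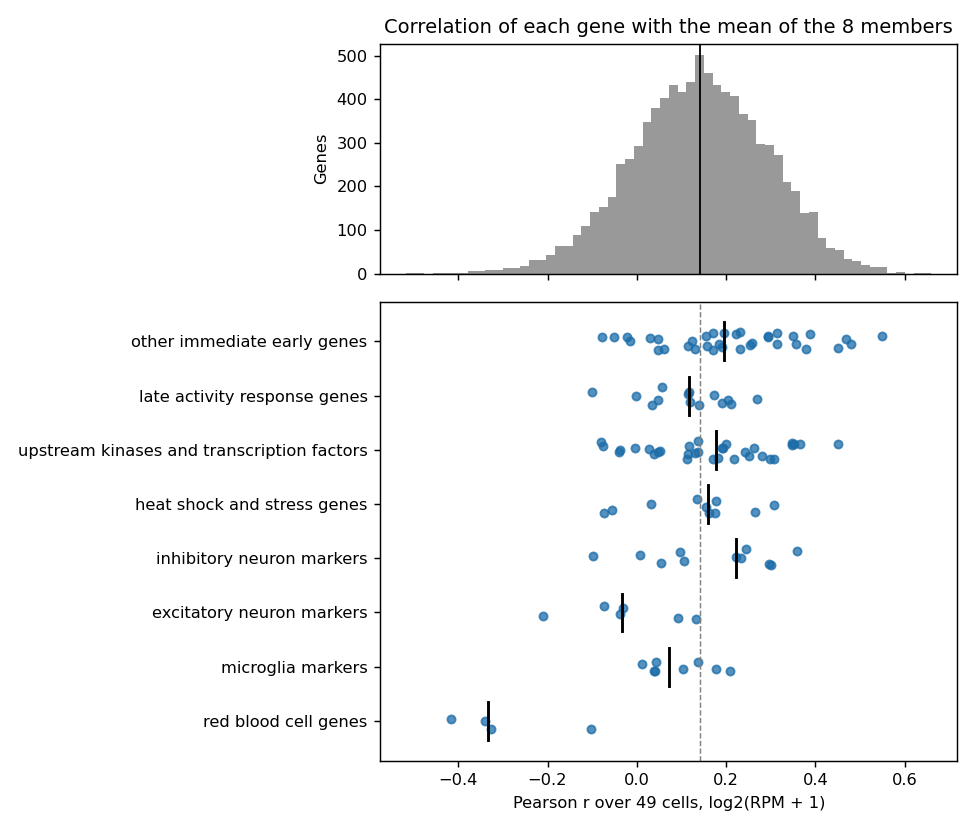
Pearson correlation of log2(RPM + 1) over the 49 cells with the mean of the 8 members (horizontal axis, both panels), as the number of genes for all 9012 other genes (top) and for each gene of 8 lists (bottom, points, with black bars at the medians); the vertical line marks the median of all genes, 0.14. Other immediate early genes reach 0.55 (Klf10), late response genes stay below 0.3, and 3 of 4 red blood cell genes lie at -0.3 or less.

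Markers of cell types were given the same comparison. Inhibitory neuron markers had a Pearson correlation of 0.30 with the members and a Spearman correlation of 0.11, and 1 of 11 reached 0.3 (Gad2, 0.36). In the 3 cells with all 8 members the summed level of the 11 markers was 9383, 1613 and 5321 RPM, in the same order (ranks 1, 7 and 4 of 49), over a median of 225 RPM. In IL10 of pool 5 most of that sum was Vip, at 8113 RPM, and without that cell the correlation of the list was 0.23. In IL12 of pool 1, with the highest Junb, it was 3355 RPM. Excitatory markers were at -0.03, with 0 of 6 genes at 0.3 or more. Among the 3 cells with all 8 members, the excitatory sum was 33.6, 7.80 and 330 RPM over a median of 612 RPM. High inhibitory sums did not always go with many members. IL07 of pool 3, rank 2 for inhibitory markers with 7020 RPM, held 3 members and had Egr1 at 6.03 RPM. Within pool 1 the correlation of the inhibitory list was -0.12. No class was assigned to a cell, and the part of cell class in the members' levels was not tested.

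Microglial genes were above their median in 3 of the cells that led a member and below it in the others. In IL05 of pool 5, with the highest Fos (1543 RPM) and the second highest Junb and Dusp1, the summed level of the 8 microglial markers in the table was 7205 RPM, the highest of all cells, over a median of 19.9 RPM. The pan-neuronal sum there was 1460 RPM, rank 48 of 49. In IL02 of pool 5, with the highest Ier2, the microglial sum was 2042 RPM, rank 4. In IL10 of pool 5, which led Fosb, Egr1 and Npas4, it was 754 RPM, rank 7. In IL06 of pool 2, which led Jun, the microglial sum was 9.93 RPM. It was 0 in IL12 of pool 1, which led Junb, and in IL09 of pool 4, which led Dusp1. Over all cells the list had a correlation of 0.12 with the members, and 0 of 8 genes reached 0.3. That value rested on the pools, with 0.02 when centred within pools, 0.26 without pool 3, 0.05 without pool 4 and -0.017 without pool 5, and within pool 3 it was -0.49. Without the cell with the highest microglial sum, a cell still held a median of 5 members, the median correlation between members was 0.23, and the highest Fos level was 1332 RPM. The remaining marker lists had 0.31 (pan-neuronal), 0.19 (oligodendrocyte lineage), -0.05 (astrocyte) and -0.12 (endothelial and mural, with 2 of 7 genes in the table).

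Red blood cell genes were the list that went against the members. Their correlation was -0.33 (within pools -0.41), and 3 of 4 genes were at -0.3 or less, led by Hbb-bt (-0.42), compared with 0.422% of all genes. Since RPM are relative, a cell in which hemoglobin takes a large share has lower RPM of all else. Hemoglobin held 68.8% of the reads in IL01 of pool 3, which had 2 members at 10 RPM or more, 21.6% in IL03 of pool 4, which had 4, and 11.6% in IL01 of pool 4, which had 1. Without these 3 cells the correlation of the list with the members was -0.22, and when RPM were taken relative to reads outside hemoglobin and mitochondrial genes it was -0.26. The percentage of hemoglobin itself had a correlation of -0.19 with the mean of the members, and that of mitochondrial reads one of -0.20. The part of either in the members' levels was not tested.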

How the data were processed

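Single FT-labelled neurons were collected by patch pipette, and cDNA was prepared by the 3′ version of SMART-Seq v4. Per the paper's methods and the submitters' processing notes, the authors used STAR on mm10 (GRCm38), then HTSeq for read counts per gene, and scaled each cell to RPM. Versions, annotation and strand setting are not given in the sources used here. The deposited table holds RPM before any log step, for genes that each reach 100 RPM in at least 2 cells. Every value above 0 was divided by what 1 read is worth in its cell, and 100% came out within 0.01 of a whole read (also tested on simulated data). Levels were compared on log2(RPM + 1). Because the kit reads 3′ ends, RPM of different genes were not taken as amounts of RNA to be ranked. Genes were ordered by the share of cells at a common limit, and that order carries the same limit. Shares of cells have Clopper-Pearson intervals at 95%, single counts exact Poisson intervals.

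The 49 cells are 1 condition, so no count test was run. edgeR was used for TMM factors in an alternative only. Named were all 10 genes looked for and, per list, up to 5 genes with the highest and 2 with the lowest correlation with the mean of the members, plus the 10 most like it among genes at 10 RPM or more in at least 10 cells. C1qb, Aif1, Tmem119, Vip, Bdnf, Srf and the single cells described were named after their values were seen. Members and lists were chosen with earlier results of these data known. Gene coordinates are those of GENCODE M21, and promoters those of RefSeq. The CArG box was searched as its usual pattern, with all motifs on both strands. Alternatives were other limits, thinning, other scalings and pseudocounts, rank correlation, centring by pool, correlation given depth, a filter on low genes, a limit for exchanged reads and leaving out each pool. Further ones, leaving out single cells, were added after seeing the data. The tools were edgeR 4.0.16 in R 4.3.3 and, in Python 3.11.15, scipy 1.17.1, pandas 2.3.3, numpy 2.4.6 and matplotlib 3.10.9.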

Additional observations from a re-analysis of the deposited data

How the results depend on the processing

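No paired analysis was possible because the labels give a single condition. The median number of members per cell was 2 at a limit of 100 RPM in place of 10 RPM, and otherwise lay between 5 and 7. Over the alternatives run, the median correlation between members stayed between 0.19 and 0.28, that of the members with reads per cell between 0.23 and 0.56 and that with other immediate early genes between 0.49 and 0.65. Marker lists with values near 0 changed sign: excitatory markers were at 0.026 without library pool 1 and at a pseudocount of 0.1, 0.033 by Spearman, 0.038 with TMM factors, 0.035 without the cell with all members at 100 RPM, 0.021 without the cells with at least 10% hemoglobin and 0.089 without the 2 cells farthest from the median of the list. Astrocyte markers were at 0.012 without pool 1, 0.036 without pool 5 and 0.046 at a pseudocount of 0.1, microglial markers at -0.017 without pool 5, and endothelial and mural markers at 0.0079 without the 2 farthest cells. The causes were not tested. Depth limits what a 0 can show, since 3 reads were worth up to 14.3 RPM in a cell with 0 reads of Jun or Dusp1.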

Other observations

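Among genes at 10 RPM or more in at least 10 cells, the 10 with the highest correlation with the mean of the 8 members over the 49 cells held no known immediate early gene of the lists. Otud6b, which encodes a deubiquitinase, was first (0.66, within pools 0.71), followed by Samm50, a part of the sorting machinery of the outer mitochondrial membrane (0.63). Rabggtb, a subunit of the enzyme that prenylates Rab proteins, was at 0.60, and Armc6 and the BCL2-family gene Bad at 0.59 each. Ccdc59, Tmem19, Tsfm, Sac3d1 and Rgs7 were at 0.56 each. Given log10 reads per cell, these 10 values lay between 0.48 and 0.59. Klf10, the highest of the other immediate early genes, had 0.55. These genes were picked as the highest of 7413, over cells that share pools and depth, so their values describe a selection and support nothing on their own.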
